A study of Mus with 8 samples.

Results

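Of the 14236 circRNAs that have a probe on the array, 5 are described here: mmu_circRNA_24245 from Cdc27 (probe ASCRP4001359), mmu_circRNA_43813 from Zfp426 (ASCRP4001750), mmu_circRNA_21813 from Ncoa7 (ASCRP4000828), mmu_circRNA_34414 from Map1a (ASCRP4011284) and mmu_circRNA_37783 from Srrm1 (ASCRP4009452). All are exonic circRNAs from the study's list of circRNAs increased in traumatic heterotopic ossification (HO), the formation of bone in soft tissue after injury. The authors describe their choice from that list as random and measured them again by qRT-PCR with U6 as the reference. By size of rise on the deposited values, however, they stand at places 2, 12, 18, 19 and 20 of 12795. They are thus among the largest rises and do not stand for increased circRNAs in general. Entry to that list depended on fold change and P value, so they were chosen by their difference between HO and control on these same arrays, and this difference is given below as a description without a test. The qRT-PCR values were not analysed here. The scanner output names circRNAs by probe number only. The link between probe and circRNA name rests on the match of their printed fold change to the deposited normalized values.

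The HO group was made of wild-type male C57BL/6 mice with Achilles tenotomy and a partial-thickness burn of the dorsal skin, and the control group of mice of the same strain and sex with a skin incision alone. The samples were pieces of Achilles tendon region with adjoining calf muscle from mice 15 to 17 weeks old, 9 weeks past the operation, and each group has 4 arrays. The groups thus differ in both tenotomy and burn, and these cannot be told apart. In such bulk tissue, more cells of a type and more RNA per cell cannot be told apart. Total RNA was digested with RNase R, an enzyme that removes linear RNA, and the remaining RNA was labelled with Cy3 and hybridized to 1-colour arrays.

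A circRNA is made when the splicing machinery joins the end of an exon to the start of the same exon or of an exon upstream of it, which closes the RNA into a ring. A ring has no free end and resists RNase R and most cellular exonucleases, so circRNAs can build up in cells that divide rarely. Its amount depends on the transcription of the host gene, on how often the exons are back-spliced and on how long the ring lasts, and it need not follow the amount of the linear mRNA. The linear mRNAs of the 5 host genes have no probe among the named linear transcripts of this array. The host genes belong to unrelated processes. Cdc27 encodes a core subunit of the anaphase-promoting complex, the ubiquitin ligase that drives the exit from mitosis. Zfp426 encodes a zinc finger protein. Ncoa7 encodes a nuclear receptor coactivator that also carries a domain found in oxidation resistance proteins. Map1a encodes a protein that binds and stabilizes microtubules and is best known from neurons. Srrm1 encodes a coactivator of pre-mRNA splicing that is rich in serine and arginine repeats. The genes lie on chromosomes 11, 9, 10, 2 and 4, in the order Cdc27, Zfp426, Ncoa7, Map1a, Srrm1. No sequence of the probes or of the junctions was given with the data, so none is shown.

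The number of circRNA probes well above background ranged from 12419 to 13839 on control arrays and from 9913 to 12109 on HO arrays, with control 1 apart from the other control arrays. The first number of the barcode field in the scanner output, read here as slide row, differed between HO and control arrays. What it numbers is not stated. It is confounded with group: they cannot be told apart. HO 3 was scanned separately from the other 7 arrays. The array holds 50 probes for linear transcripts, of which 44 have a RefSeq symbol. They read linear RNA left after RNase R, so their levels need not follow the amounts in the tissue. Among the marker genes listed for muscle, tendon, bone, cartilage, blood, nerve and fat, 2 have a probe, so the labelled tissues could not be checked against tendon or bone markers. The log2 level of Hspb7, a small heat shock protein of muscle, lay between 10.01 and 10.78 on the control arrays and between 6.83 and 8.22 on the HO arrays. The log2 level of Mbp, a myelin protein, lay between 3.28 and 3.76 on the control arrays and between 3.95 and 4.50 on the HO arrays. On HO 2, where Mbp was lowest among the HO arrays, 20% of its spots were well above background, and on HO 3 70% were. On the other 6 arrays the share was 80% or more. The control and HO ranges of both transcripts do not overlap, and their part in the values of the 5 circRNAs was not tested.

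The probes of all 5 circRNAs were well above background on all 8 arrays, and none was saturated or marked as an outlier. Each circRNA has 1 spot per array, so the spread between spots of an array could not be measured. Within an array, probes can be ranked by brightness without any scaling between arrays, although brightness also depends on how well a probe hybridizes and does not order the circRNAs by number of molecules.

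By this rank the 5 probes fell into 2 classes. The probe of mmu_circRNA_37783 ranked between 12 and 32 of 14236 on the control arrays and between 4 and 19 on the HO arrays. The probe of mmu_circRNA_21813 ranked between 56 and 111 on the control arrays and between 16 and 52 on the HO arrays. These probes were thus among the brightest on every array. The other 3 stood lower on the control arrays, at ranks 659 to 1668 for mmu_circRNA_43813, 1104 to 1994 for mmu_circRNA_34414 and 1790 to 4394 for mmu_circRNA_24245. On the HO arrays they reached ranks 89 to 635, 262 to 916 and 238 to 762, in the same order. In percentiles the widest shift was that of mmu_circRNA_24245, from 76.8 ± 8.0 (SD, n = 4) in the control group to 97.2 ± 1.7 (SD, n = 4) in the HO group. For 4 of the 5 probes, each HO array gave a better rank than each control array, which held for 16.3% of the 12813 circRNAs fitted below. The exception was mmu_circRNA_37783, whose rank of 19 on HO 4 was behind its ranks of 12 on control 1 and 14 on control 3. On HO 4, 11 of the brighter spots were marked as outliers by the scanner software, and with outlier spots left out the rank there was 8.

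**Figure D1:**
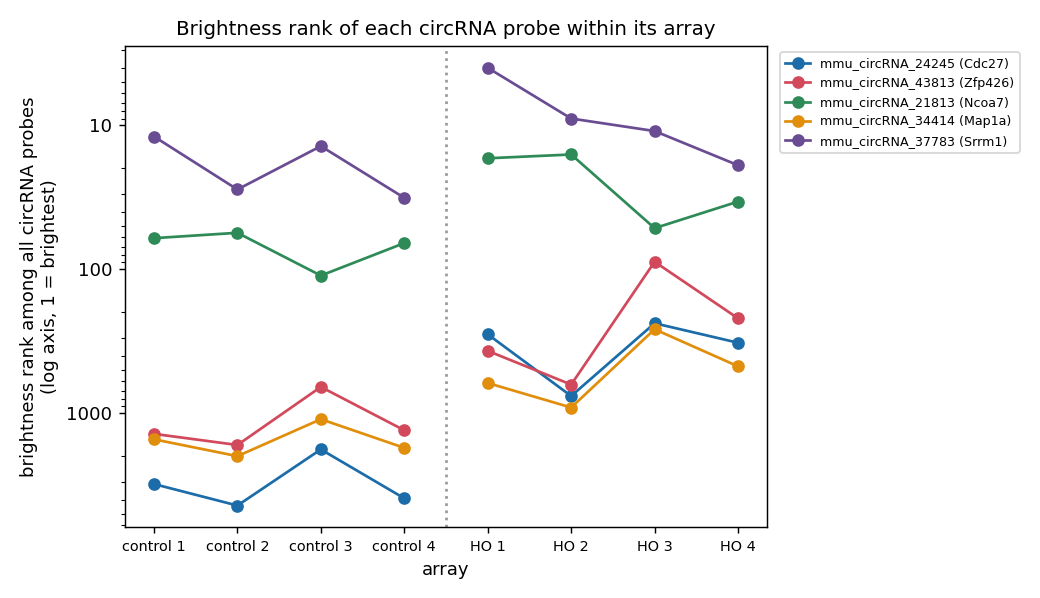
Brightness rank of the 5 circRNA probes within each of the 8 arrays (vertical axis logarithmic, rank 1 brightest, 14236 circRNA probes, outlier spots included). Lines join the points of 1 circRNA within a group and imply no order of the arrays. The probes of mmu_circRNA_37783 and mmu_circRNA_21813 stayed within the first 111 ranks on all arrays, and the other 3 moved from ranks of 659 to 4394 on the control arrays to ranks of 89 to 916 on the HO arrays.

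To compare arrays, the log2 processed signal was quantile normalized. A circRNA was fitted with limma if 4 or more arrays had it well above background, which left 12813. For mmu_circRNA_24245 the log2 normalized intensity was 7.33, 6.70, 8.23 and 6.92 on control arrays 1 to 4 and 10.72, 9.44, 10.92 and 10.61 on HO arrays 1 to 4. The groups stood apart by 1.21 between the lowest HO array, HO 2, and the highest control array, control 3. This was the widest separation of the 5, and the difference between the group means was 3.13 on the log2 scale (standard error 0.40), or 8.74-fold. It depended on the processing, with 2.32 (4.98-fold) on the deposited values, 2.32 with a normexp offset of 50 and 3.70 with median scaling.

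For mmu_circRNA_43813 the values were 8.60, 8.34, 9.64 and 8.69 on control arrays 1 to 4 and 10.40, 9.70, 12.11 and 11.07 on HO arrays 1 to 4. The group means differed by 2.00 on the log2 scale (standard error 0.49), and the spread among HO arrays, 1.03 (SD, n = 4), was the widest of the 5. HO 2 lay just 0.06 above control 3, so the groups met without crossing. For mmu_circRNA_34414 the values were 8.48, 8.07, 8.95 and 8.27 on the control arrays and 9.72, 9.20, 10.82 and 10.11 on the HO arrays, in the same order of arrays. Again HO 2 was the lowest HO array and control 3 the highest control array, 0.25 apart, with a log2 difference between the means of 1.52 (standard error 0.34).

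The remaining 2 are the bright circRNAs. For mmu_circRNA_21813 the values were 12.57, 12.66, 11.78 and 12.55 on control arrays 1 to 4 and 13.89, 14.08, 12.77 and 13.62 on HO arrays 1 to 4. Here control 3 and HO 3 were the lowest of their groups, HO 3 lay 0.11 above the highest control array, and the log2 difference between the means was 1.20 (standard error 0.31). For mmu_circRNA_37783 the values were 14.26, 13.35, 14.08 and 13.34 on the control arrays and 15.70, 14.81, 14.37 and 14.81 on the HO arrays. HO 3 lay 0.10 above control 1, and the log2 difference between the means was 1.17 (standard error 0.32).

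All 5 circRNAs were at least 2-fold higher in HO, and for all 5 the 4 HO arrays lay above the 4 control arrays. Among all 12813 circRNAs fitted, 5.27% were at least 2-fold higher in HO at any p, 5.1% were so at a limma p, unadjusted, of 0.05 or less, and 16.5% had all HO arrays above all control arrays. Nothing is read from the count of 5, since the circRNAs were picked for this difference. Ordered by the size of the rise among all circRNAs fitted, mmu_circRNA_24245 stood at place 2, mmu_circRNA_43813 at 24, mmu_circRNA_34414 at 134, mmu_circRNA_21813 at 349 and mmu_circRNA_37783 at 398. These places hold for this processing alone. On the deposited values they were 2, 12, 19, 18 and 20 in the same order of circRNAs, and with a normexp offset of 50 they were 2, 7, 11, 9 and 10. With outlier spots kept they were 4, 36, 147, 452 and 804. Scaling to the 75th percentile or to the median gave places 1, 8, 11, 47 and 532. The order among mmu_circRNA_34414, mmu_circRNA_21813 and mmu_circRNA_37783 thus changed with the processing. The 5 also varied more among control arrays than most circRNAs, with an SD at percentile 82.8 to 98.3 of all SDs in the control group and at percentile 76.2 to 96.0 in the HO group.

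**Figure D2:**
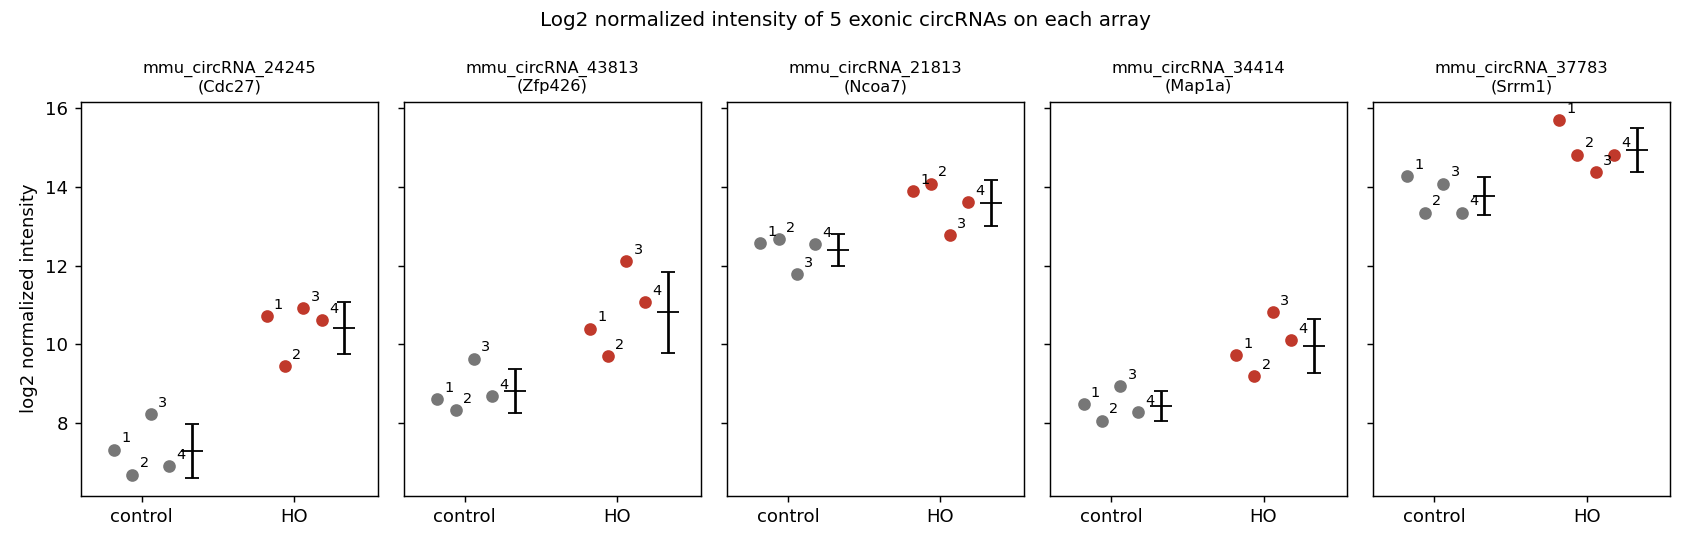
Log2 normalized intensity of each circRNA on the 4 control arrays (grey) and the 4 HO arrays (red), with the array number beside each point and the group mean ± SD as a bar. The groups are widely apart for mmu_circRNA_24245 and are 0.06 to 0.25 apart for the other 4.

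The separation of the groups depended on the processing for mmu_circRNA_43813, mmu_circRNA_37783 and mmu_circRNA_21813. In the normalized log2 values that the authors deposited, mmu_circRNA_43813 was at 9.55 on HO 2 and at 9.75 on control 3, and mmu_circRNA_37783 was at 14.43 on HO 3 and at 14.60 on control 1, so that both overlapped. The other 3 did not overlap there, and 14.1% of all circRNAs had all HO arrays above all control arrays in those values. The deposited value of mmu_circRNA_37783 was the same on HO 1 and HO 2, 15.78, although its processed signal was 45930 and 15284 there. With outlier spots kept in the quantile normalization, mmu_circRNA_37783 fell from 14.81 to 13.95 on HO 4 and overlapped with the control group, at a log2 difference of 0.95. The other 4 circRNAs did not overlap under that setting, where the share over all circRNAs was 16.3%. Scaling to the 75th percentile or to the median also made mmu_circRNA_37783 overlap and left the other 4 apart, where 12.7% and 22.9% of all circRNAs had all HO arrays above all control arrays. A normexp offset of 50 or no background correction made mmu_circRNA_43813 overlap and left the other 4 apart, where the share was 14.2% and 13.4%. mmu_circRNA_24245 and mmu_circRNA_34414 did not overlap under any processing run.

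Before any scaling between arrays, only mmu_circRNA_24245 and mmu_circRNA_34414 had all HO arrays above all control arrays, against 0.609% of all circRNAs fitted. The unscaled processed signal of mmu_circRNA_24245 was 219.6, 105.8, 311.9 and 113.9 on the control arrays and 2724, 606.5, 1777 and 1671 on the HO arrays. That of mmu_circRNA_37783 was 35387, 10039, 19180 and 7611 on the control arrays and 45930, 15284, 17240 and 26336 on the HO arrays. For mmu_circRNA_21813, HO 3 was below control 1, and for mmu_circRNA_43813, HO 2 was below control 3. Control 1 was brighter for mmu_circRNA_37783 than all HO arrays but HO 1, and its log2 difference between the means was 0.65. Across all circRNAs fitted, the median difference was -0.42 without scaling and 0.05 after quantile normalization. Scaling to the 75th percentile gave -0.16, and scaling to the median gave 0.15. All 5 log2 differences were positive under each of these. With 1 array left out, the difference of mmu_circRNA_37783 was under 2-fold without HO 1, at 0.91, and that of mmu_circRNA_21813 was 1.00 without control 3, at the edge of 2-fold.

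**Figure D3:**
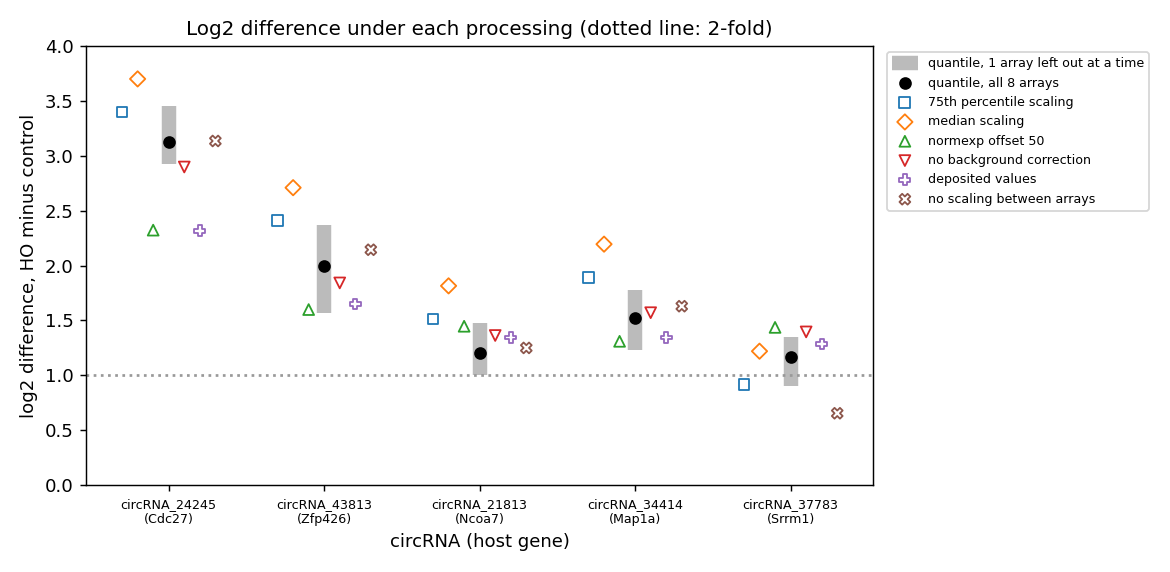
Log2 difference, HO minus control, of each circRNA with quantile normalization (black), with 1 array left out at a time (grey bar, lowest to highest) and under 6 other ways of processing. The setting with outlier spots kept is not drawn, and mmu_circRNA_37783 was at 0.95 there. All differences are above 0, and those of mmu_circRNA_37783 with 75th percentile scaling (0.92) and without scaling (0.65) are under the dotted line at 2-fold, as is the lower end of its grey bar (0.91). The grey bar of mmu_circRNA_21813 ends at the line (1.00).

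The size of the variation among arrays of the same group entered the choice of the circRNAs through the P value, but it did not set the direction of their difference. This variation split them in another way than the comparison of the groups did. Deviations from the group means were compared over the 8 arrays for the 10 pairs of circRNAs. For mmu_circRNA_43813 the deviation was 1.29 on HO 3, -1.12 on HO 2 and 0.82 on control 3. For mmu_circRNA_34414 it was 0.86, -0.76 and 0.51 on the same arrays, and for mmu_circRNA_21813 it was -0.82, 0.49 and -0.61. Thus mmu_circRNA_43813 and mmu_circRNA_34414 were highest on the same arrays, and mmu_circRNA_21813 was lowest on them, although all 3 were higher in HO.

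**Figure D4:**
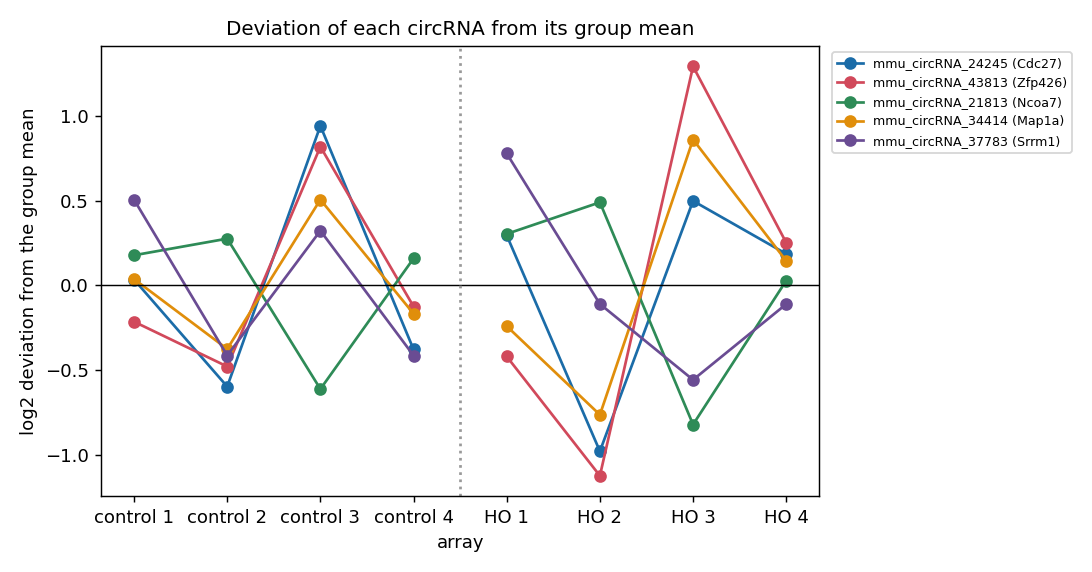
Deviation of each circRNA from its group mean on the log2 scale, by array. Lines join the points of 1 circRNA within a group and imply no order of the arrays. On control 3 and HO 3, mmu_circRNA_24245, mmu_circRNA_43813 and mmu_circRNA_34414 lie above 0 and mmu_circRNA_21813 lies below it, and on HO 2 the order is turned.

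The deviations of mmu_circRNA_43813 and mmu_circRNA_34414 had a Pearson r of 0.99 (two-sided exact permutation test within groups, p = 0.0035) and a Spearman rho of 0.98 (exact permutation p = 0.0069) over 8 arrays. Only 0.12% of all 81606700 pairs of circRNAs with a value on each array had a correlation as far from 0. Without the 2 arrays farthest from the median, control 3 and HO 3, r was 0.95. Over all 8 values, which include the difference between the groups, mmu_circRNA_34414 stood at place 3 of 12775 by likeness to mmu_circRNA_43813, with a Pearson r of 0.99.

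The deviations of mmu_circRNA_21813 ran against both. With mmu_circRNA_43813 r was -0.97 (exact permutation p = 0.0017, the smallest that 576 permutations can give) and rho was -0.98 (exact permutation p = 0.0035). With mmu_circRNA_34414 r was -0.95 (exact permutation p = 0.0035) and rho was -0.95 (exact permutation p = 0.0069). Of all pairs, 0.89% and 2.13% were as far from 0. Without control 3 and HO 3, r was -0.99 and -0.95. With Benjamini-Hochberg adjustment over the 10 pairs examined, the exact permutation p of these 3 pairs was 0.012 for r and 0.023 for rho. The 3 correlations had the same sign within the control arrays alone and within the HO arrays alone.

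The deviations of mmu_circRNA_24245 followed the same axis less closely. Pearson r was 0.82 with mmu_circRNA_43813 (exact permutation p = 0.012; rho 0.81, exact permutation p = 0.031), 0.85 with mmu_circRNA_34414 (exact permutation p = 0.0069; rho 0.83, exact permutation p = 0.021) and -0.78 with mmu_circRNA_21813 (exact permutation p = 0.031; rho -0.71, exact permutation p = 0.063). Adjusted over the 10 pairs, the exact permutation p for r was 0.024, 0.017 and 0.052, and for rho it was 0.063, 0.052 and 0.10, so the relation with mmu_circRNA_21813 and all 3 rank correlations did not pass 0.05. Without control 3 and HO 2 the 3 values of r fell to 0.43, 0.62 and -0.43, so they rested largely on those arrays. With the replicate number taken out as a block they were 0.25, 0.16 and -0.10. Such a block makes the HO deviations the mirror of the control deviations, so r then rests on 4 values. Between 13.9% and 22.8% of all pairs were as far from 0 as these 3 pairs were with all arrays and no block. For mmu_circRNA_37783 the correlations with the other 4 lay between -0.21 and 0.36 (exact permutation p between 0.39 and 0.84; rho between -0.36 and 0.48, exact permutation p between 0.32 and 0.77), and their sign changed with the processing or with 1 array left out.

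Strong correlations were common among all circRNAs. The middle of the range over all pairs of circRNAs, from the lower to the upper quartile, ran from -0.55 to 0.55, and 5 of the 10 pairs described here were positive, with a median of 0.06 against -0.001 over all pairs. The sign of the median over the 10 pairs was not stable, as it was -0.31 on the deposited values, 0.32 with scaling to the 75th percentile and 0.36 without HO 3, so nothing is read from it. Much of the variation was shared by many circRNAs. The first principal component of the deviations of all 12776 circRNAs held 64.2% of their variance, with HO 3 and HO 2 at its ends. Its Pearson r was 0.99 with mmu_circRNA_43813 (exact permutation p = 0.0035; rho 0.93, exact permutation p = 0.014), 0.95 with mmu_circRNA_34414 (exact permutation p = 0.0069; rho 0.88, exact permutation p = 0.031) and -0.94 with mmu_circRNA_21813 (exact permutation p = 0.0035; rho -0.98, exact permutation p = 0.0069). Without the 2 arrays at its ends r was 0.95, 0.83 and -0.88. Of all circRNAs, 1.46% followed the component as closely as mmu_circRNA_43813, 11.2% as closely as mmu_circRNA_34414 and 16.5% as closely as mmu_circRNA_21813. For mmu_circRNA_24245 r was 0.74 (exact permutation p = 0.045; rho 0.67, exact permutation p = 0.090), which 56.5% of circRNAs matched, and for mmu_circRNA_37783 it was -0.35 (exact permutation p = 0.49; rho -0.57, exact permutation p = 0.22), which 83.8% matched. HO 2 had the fewest circRNA probes well above background, 9913. The component was computed from deviations that include the 5 circRNAs, so nothing is read from its p values beyond the shares over all circRNAs. What sets this component was not tested.

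With the component removed, r was 0.92 between mmu_circRNA_43813 and mmu_circRNA_34414, -0.73 between mmu_circRNA_43813 and mmu_circRNA_21813 and -0.53 between mmu_circRNA_34414 and mmu_circRNA_21813. The correlations of mmu_circRNA_37783 with mmu_circRNA_24245, mmu_circRNA_43813 and mmu_circRNA_34414 became 0.98, 0.87 and 0.81. Removal of the component was chosen after the correlations had been seen, and these values are a description. The share of all pairs that reach such values with the component removed was not computed. Control 3 and HO 3 deviate alike and carry the same replicate number. With the replicate number taken out as a block, r was 0.97 for mmu_circRNA_43813 with mmu_circRNA_34414, -0.98 for mmu_circRNA_43813 with mmu_circRNA_21813 and -0.99 for mmu_circRNA_34414 with mmu_circRNA_21813. Under that block the correlations of mmu_circRNA_24245 with mmu_circRNA_43813, mmu_circRNA_34414 and mmu_circRNA_21813 fell to 0.25, 0.16 and -0.10. With the component removed instead, they were 0.86, 0.74 and -0.40.

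**Figure D5:**
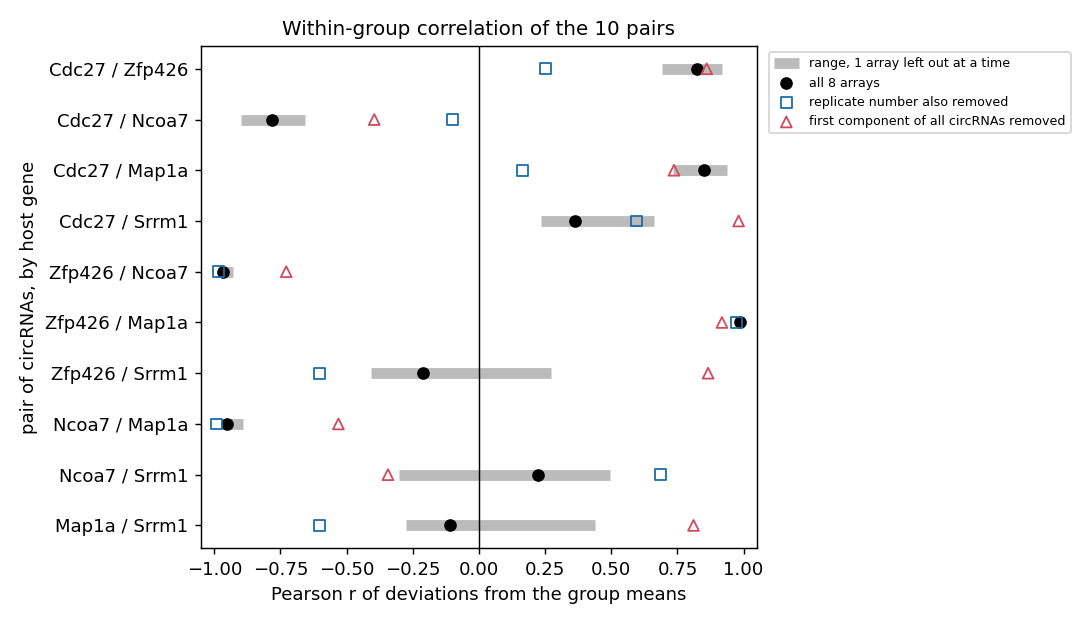
Pearson r of the deviations from the group means for the 10 pairs of circRNAs, named by host gene, over all 8 arrays (black), with 1 array left out at a time (grey bar), with the replicate number also removed (squares) and with the first component of all circRNAs removed (triangles). The pairs among the circRNAs of Zfp426, Map1a and Ncoa7 keep their sign in all of these, and the pairs of the Srrm1 circRNA do not, apart from that with the Cdc27 circRNA.

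The deviations of mmu_circRNA_37783, the brightest of the 5, followed another measure. Within the groups, its normalized intensity was higher on arrays whose unscaled median signal was higher, with r = 0.90 (two-sided exact permutation test within groups, p = 0.0052) and rho = 0.86 (exact permutation p = 0.021), and r was 0.77 without the 2 arrays farthest from the median. Of all circRNAs, 0.595% followed the median signal as closely in either direction. Relations of the 5 circRNAs were computed with 4 measures of the arrays, 20 in all: the component, the median signal, the interquartile range of the log2 signal and the number of probes well above background. With the interquartile range r was -0.84 for mmu_circRNA_43813 (exact permutation p = 0.033; rho -0.81, exact permutation p = 0.073) and 0.76 for mmu_circRNA_21813 (exact permutation p = 0.031; rho 0.86, exact permutation p = 0.066), both at an adjusted exact permutation p of 0.11 for r. For the other 3 with that range, and for all 5 with the number of probes, the exact permutation p for r was between 0.075 and 0.35 before adjustment. Adjusted over these, the exact permutation p for r was 0.035 for mmu_circRNA_37783 with the median signal and for mmu_circRNA_43813, mmu_circRNA_34414 and mmu_circRNA_21813 with the component, and 0.13 for mmu_circRNA_24245 with the component. The p values with the component are a description, since it was computed from deviations that include these circRNAs. For the 4 circRNAs other than mmu_circRNA_37783, r with the median signal lay between -0.10 and 0.43.

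Across all 8 arrays, profiles like those of the 5 circRNAs were found in unequal numbers. A Pearson r of at least 0.95 was reached by 474 of 12775 circRNAs with mmu_circRNA_21813, 168 with mmu_circRNA_34414, 155 with mmu_circRNA_43813, 116 with mmu_circRNA_24245 and 17 with mmu_circRNA_37783. The circRNA probe most like the 5 on average, ASCRP4003922, had a mean r of 0.87 with them and was at 7.58 ± 0.09 (SD, n = 4) on the control arrays and 8.13 ± 0.08 (SD, n = 4) on the HO arrays. Among the 40 named linear transcripts well above background on at least 4 arrays, Bambi, a decoy receptor that dampens BMP and TGF-beta signals, was most like mmu_circRNA_21813 (r = 0.99), with a log2 level of 4.35 ± 0.44 on the control arrays and 5.34 ± 0.47 on the HO arrays (SD, n = 4 each). Lhx1, a homeobox transcription factor, was most like mmu_circRNA_43813 (r = 0.86) and mmu_circRNA_34414 (r = 0.90). Dnajc11, a mitochondrial co-chaperone, was most like mmu_circRNA_24245 (r = 0.92), and Gabrg1, a GABA receptor subunit, was most like mmu_circRNA_37783 (r = 0.92). Both had low log2 levels. Dnajc11 was at 2.89 ± 0.07 on the control and 3.39 ± 0.12 on the HO arrays (SD, n = 4 each). Gabrg1 was at 2.05 ± 0.31 on the control and 3.95 ± 0.58 on the HO arrays (SD, n = 4 each). All these linear levels are of RNA left after RNase R. These likenesses include the difference between the groups, are the highest of 40 each and are given without a test. Over deviations from the group means, r with the same circRNAs was 0.98 for Bambi, 0.51 and 0.60 for Lhx1, 0.30 for Dnajc11 and 0.80 for Gabrg1.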

How the data were processed

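Tissue from 4 mice with HO and 4 control mice was measured on 1-colour Agilent circRNA arrays. The authors deposited Feature Extraction 11.0.1.1 output, in which each spot has a background-corrected intensity on a linear scale (gProcessedSignal) that is not normalized between arrays, spot and local background medians, and flags of 0 or 1 for signal well above background, saturation and outliers. These flags have no other unit, as the deposited file headers show. The authors also deposited quantile normalized log2 values per circRNA probe, with the background step not stated.

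The log2 processed signal of circRNA probes was quantile normalized without outlier spots. CircRNAs flagged as well above background by 4 or more arrays were fitted with limma 3.58.1 in R 4.3.3 (lmFit, eBayes, no covariate). Calls were counted at 2-fold and an unadjusted p of 0.05, as in the methods. Depth has no counterpart on arrays, and 4 arrays per group limit the precision. Deviations from group means were correlated (Pearson and Spearman), with exact permutation of the arrays within groups. Both steps were tested on simulated data. The circRNAs, marker lists and tests were chosen with earlier results of these data known. Beyond the 5 circRNAs, the rule named, for each, the linear transcript with the highest Pearson correlation over 8 arrays, and the 1 circRNA probe with the highest mean correlation. Lists of the anaphase-promoting complex, splicing factors, TLDc genes and microtubule-associated proteins, and other circRNAs of the host genes, were not analysed, since no table used here pairs circRNA probes with genes. The alternatives were other scalings, background corrections and filters, the deposited values, outlier spots kept, the methods' t-test, an adjusted p, Spearman correlation, a replicate block and the removal of single arrays. RefSeq symbols come from GRCm38.p6, and the array design names mm9, so no coordinates are given.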

Additional observations from a re-analysis of the deposited data

Results flagged for a closer look

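In 22 groups of 4 values, 3 had a single array far from the others. Chance gives this in about 1 in 20 independent groups. The 22 are not independent, since each circRNA enters with both its normalized and its deposited values. No excess over chance is read from the 3. Control 3 was the lowest control array for mmu_circRNA_21813, at 11.78 against 12.55 to 12.66, a gap of 0.868 of the range of the group. In the deposited values of the same circRNA the gap was 0.832, at 11.70 against 12.45 to 12.61. Control 1 had 12419 circRNA probes well above background against 13698 to 13839 on the other control arrays, a gap of 0.901. With control 3 left out, the log2 difference of mmu_circRNA_21813 was 1.00, and the other 7 arrays left out in turn gave 1.04 to 1.48.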

How the results depend on the processing

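In limma, 1756 circRNAs differed at least 2-fold at an unadjusted p of 0.05 or less. This count was 200 with the normexp offset of 50, 479 with no background corrected, 166 on the deposited values and 993 when all 8 arrays had to be well above background. With each array left out it ran from 1414 to 2393. Of the 1756, 654 were higher in HO, against 373 of 2606 with 75th percentile scaling, 1105 of 2510 with median scaling and 20 of the 166 deposited. The log2 difference of mmu_circRNA_24245 (3.13) was 2.32 on the deposited values and 2.32 with the offset of 50, that of mmu_circRNA_21813 (1.20) was 1.82 with median scaling, and that of mmu_circRNA_34414 (1.52) was 2.19 with it. The cause was not tested. Under the other settings that could move them, the differences moved by less than 1 SD (pooled over both groups), and no difference of the 5 circRNAs changed sign under any setting run. Among these, the log2 difference of mmu_circRNA_43813 was 2.71 with median scaling, against 2.00 with quantile normalization. The lack of scaling and the removal of the first component were chosen after seeing the data. The labels give both groups replicate numbers 1 to 4 without saying that they pair the mice. Deviations of same-numbered arrays correlated at 0.47, 0.38, 0.73 and 0.09, and 4 of 8 arrays correlated best with their own number. With the replicate block the count was 1810. The median correlation over the 10 pairs, 0.06, was 0.03 with the replicate block, -0.31 on the deposited values, -0.28 with the normexp offset, -0.25 with no background corrected, -0.05 by Spearman correlation, 0.27 with median scaling, 0.32 with 75th percentile scaling and 0.77 with the first component removed, and it ran from -0.02 to 0.36 with single arrays left out, the highest without HO 3. The block cannot change the difference of the group means, since each number occurs once in each group.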
